A study of Homo sapiens with 4 samples.

Results

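The genes described here were those below background in both parental HER2-positive breast cancer lines and clearly detected in both of their lapatinib-resistant clones. They were chosen by their measured signals. A gene was taken when at least 1 of its probes was not well above background on either parental array and had a processed signal of 100 or more on both clone arrays. This gave 25 genes with 26 probes, out of 16422 genes with 23680 probes that could be named through RefSeq accessions. A probe is called silent here when under 50% of its spots were marked well above background, which says nothing of transcripts below the detection limit. Of the 4766 named probes silent in both parental lines, the 26 made up 0.546%. Because the same values chose the genes, the differences between clone and parental cells given below are descriptions and carry no test.

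Total RNA was profiled on Agilent Human Whole Genome arrays with a single Cy3 channel, 1 array for each of 4 conditions. SkBr3 and BT474 are established lines from breast carcinomas with amplified ERBB2, the gene of the HER2 receptor. They were grown in DMEM/F12 medium, and the parental cells of both were labelled as given vehicle. The SkBr3/Lap and BT474/Lap cells were each 1 resistant clone, raised from its line by lapatinib, a kinase inhibitor of EGFR and HER2, at rising doses up to 1 μM. The sample labels number these clones 3 for SkBr3 and 6 for BT474, while the study's text numbers them the other way round, so no clone number is used below. With 1 clone and 1 array per line, resistance cannot be told apart from other properties of the clone, and no value has a replicate. For its protein blots the study kept both clones in 1 μM lapatinib. Where this also held for the arrays, resistance cannot be told apart from the drug being on the cells.

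The genes fell into a few kinds of known function. Receptors at the cell surface bind ligands and pass on signals, which Src family kinases and other enzymes carry into the cell. Metalloproteases and their inhibitors remodel the matrix outside the cell. Transport proteins move substrates across membranes, and ABCB1, or P-glycoprotein, is known for pumping many drugs out of tumor cells. Several of the genes are best known from other tissues than breast epithelium, among them muscle, retina and blood cells.

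To show the kind of sequence in front of these genes, promoters are given for 4 genes, those for which the smaller of the fold limits in the clones was largest and whose promoters could be printed. The sequences are from RefSeq on GRCh38.p14 and span 250 bases before to 50 bases after the start of the gene, 5′ to 3′ on the strand of the gene. The windows are chr10:68109238-68109537, chrX:51331981-51332280, chr13:28820089-28820388 and chr6:1609665-1609964, all on the plus strand. Capitals mark matches, on either strand, to the motifs searched.
MYPN: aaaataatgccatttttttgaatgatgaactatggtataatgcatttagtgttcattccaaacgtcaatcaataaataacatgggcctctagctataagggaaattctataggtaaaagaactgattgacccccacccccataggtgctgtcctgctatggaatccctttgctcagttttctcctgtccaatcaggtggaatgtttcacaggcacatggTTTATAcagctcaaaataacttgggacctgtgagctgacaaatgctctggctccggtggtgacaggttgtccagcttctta
NUDT10: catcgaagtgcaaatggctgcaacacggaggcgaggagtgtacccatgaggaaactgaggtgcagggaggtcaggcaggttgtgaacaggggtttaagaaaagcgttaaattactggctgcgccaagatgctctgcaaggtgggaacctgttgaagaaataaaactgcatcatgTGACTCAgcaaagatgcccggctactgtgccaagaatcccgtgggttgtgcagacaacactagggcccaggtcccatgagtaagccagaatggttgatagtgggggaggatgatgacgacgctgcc
MTUS2: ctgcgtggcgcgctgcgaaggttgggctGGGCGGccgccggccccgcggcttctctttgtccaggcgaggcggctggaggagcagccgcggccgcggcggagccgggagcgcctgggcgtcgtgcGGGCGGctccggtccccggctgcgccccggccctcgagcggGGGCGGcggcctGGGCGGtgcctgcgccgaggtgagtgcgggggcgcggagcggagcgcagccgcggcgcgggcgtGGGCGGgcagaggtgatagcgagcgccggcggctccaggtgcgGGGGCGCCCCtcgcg
FOXC1: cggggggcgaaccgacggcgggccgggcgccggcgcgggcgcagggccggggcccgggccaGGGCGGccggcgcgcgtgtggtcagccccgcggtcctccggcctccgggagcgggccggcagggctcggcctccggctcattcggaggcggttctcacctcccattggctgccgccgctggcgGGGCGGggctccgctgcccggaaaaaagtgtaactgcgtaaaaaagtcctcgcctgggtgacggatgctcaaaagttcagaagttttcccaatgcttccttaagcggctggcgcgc
The capitals in MYPN are a TATA box (TATAAA, here on the other strand) that begins 31 bases before the start, and those in NUDT10 an AP-1 element (TGANTCA) 76 bases before it. Those in FOXC1 are GC boxes (GGGCGG), and those in MTUS2 are GC boxes and a match to the κB consensus. MYPN had 41.7% GC and NUDT10 52.7%, against 82.3% in MTUS2 and 72.7% in FOXC1. Of the motifs searched, none was in all 4 promoters, and their base composition differed.

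The 4 arrays differed in brightness, so each array's 75th percentile was subtracted from the log2 signals before cells were compared. The parental value of a pair of arrays is given first throughout. This percentile was 1115 and 2074 in the SkBr3 pair and 1158 and 1681 in the BT474 pair, and 66.6% to 74.0% of the probes were above background. The lowest signal marked well above background lay between 13.3 and 16.01. The 153 negative control spots of an array had median signals of 3.10 to 3.85. A silent parental signal below the lowest signal above background on its array was raised to that level, so that the fold change is a lower limit. The signals of NUDT10 in BT474, DEPP1 in SkBr3, and VXN and DOCK8 in both parental lines already lay above it. Their values, also called limits below, are the measured ratios. The SkBr3/Lap array lay on a slide of its own and the other 3 shared a slide, so slide and clone cannot be told apart for the SkBr3 pair. ERBB2 had signals of 238524 and 118706 in the SkBr3 pair and 256346 and 237327 in the BT474 pair. CDH1, the gene of E-cadherin, was not above background in SkBr3 or SkBr3/Lap, with signals of 11.9 and 4.66, and had signals of 44710 in BT474 and 56836 in BT474/Lap. Each clone thus resembled its own line in this marker.

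In the parental cells the 25 genes had signals of 3.20 to 18.9 in SkBr3 and 3.22 to 21.9 in BT474. Of the 25, 15 in SkBr3 and 11 in BT474 were at or below the 95th percentile of the negative control spots, and 15 had signals under 10 in both. All 25 were at or below the highest negative control spot in SkBr3, and 24 were in BT474, where VXN was the exception. This highest spot was 34.5 in SkBr3, where 3 control spots were themselves marked well above background, and 19.2 in BT474. Since the rule asked for parental signals not well above background, this comparison adds little to it. In the clones the signals were 111 to 12168 in SkBr3/Lap and 107 to 3062 in BT474/Lap, and all 25 were well above background in both. As the cultures were measured in bulk, more RNA in every cell and RNA in more of the cells cannot be told apart. The fold limits had a median of 21.1 in SkBr3/Lap, with a range of 3.71 to 409, and of 10.04 in BT474/Lap, with a range of 4.33 to 130. At least 10-fold limits were found for 20 genes in SkBr3/Lap and 13 genes in BT474/Lap, and 9 genes had them in both clones. The rule itself set these limits above 2-fold, since a signal of 100 was asked of both clones.

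**Figure D1:**
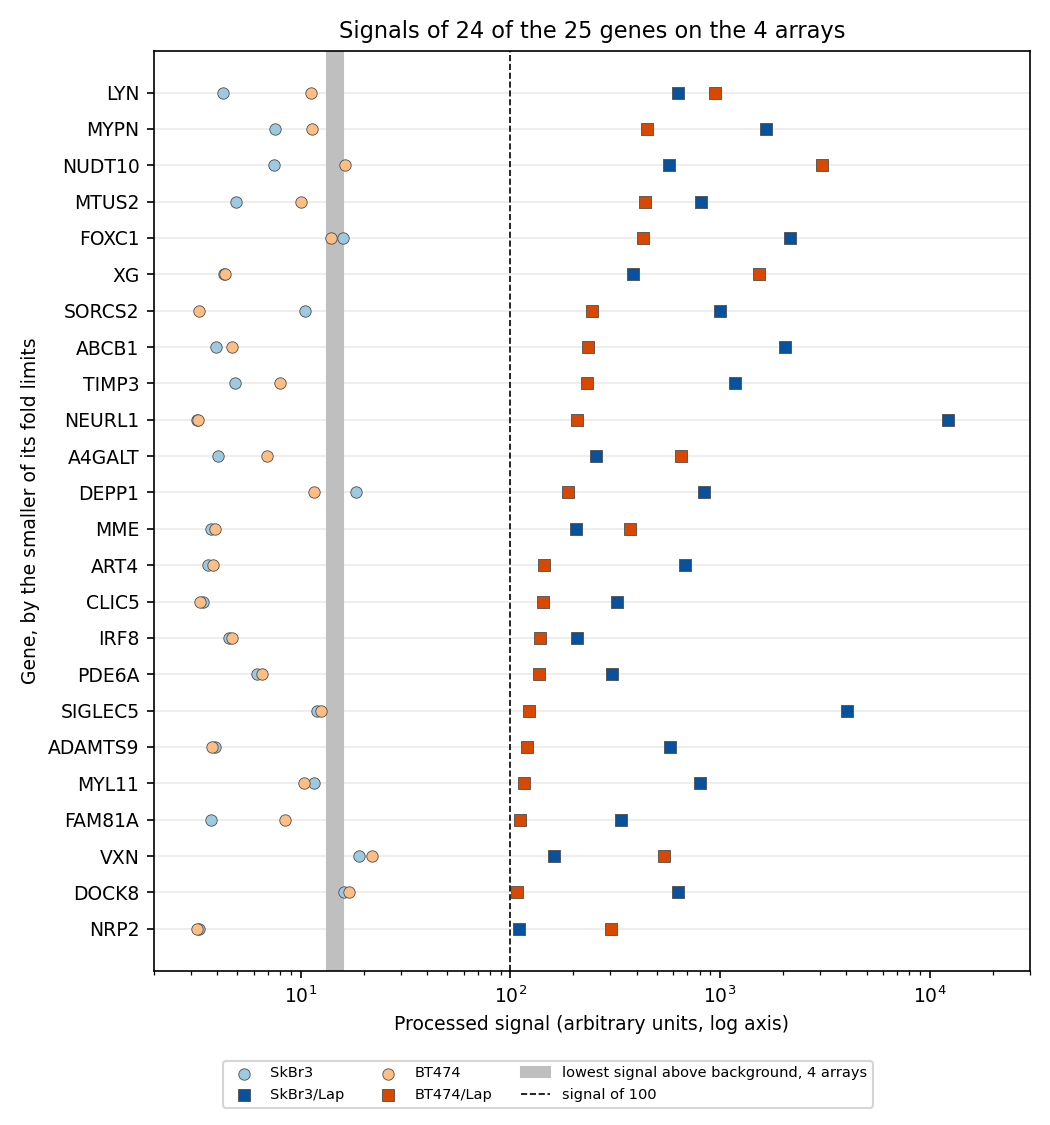
Processed signals of 24 of the 25 genes on the 4 arrays (log axis), 1 point per array, ordered by the smaller of the fold limits. Circles are parental cells and squares resistant clones, the grey band spans the lowest signals marked well above background (13.3 to 16.01) and the dashed line is the signal of 100. All circles lie at or below 21.9 and all squares at or above 107.

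Among the signalling genes, LYN encodes a Src family tyrosine kinase that is best known from blood cells. Its signal was 4.24 in SkBr3 and 629 in SkBr3/Lap, and 11.2 in BT474 and 947 in BT474/Lap, which gave limits of 21.1-fold and 40.9-fold. Its probe was spotted 10 times on each array, and the spots lay between 585 and 666 in SkBr3/Lap and between 857 and 1022 in BT474/Lap. No spot of LYN was above background in either parental line, where the highest spot was 17.2. NUDT10 encodes a phosphatase of inositol pyrophosphates. Its signals were 7.49 and 569 in the SkBr3 pair and 16.2 and 3062 in the BT474 pair, with limits of 19.1-fold and 130-fold. The scaled signal of NUDT10 was 6.63-fold higher in BT474/Lap than in SkBr3/Lap. NUDT11, its neighbor and near-identical copy, had signals of 3.38, 22.7, 18.5 and 194 in the same order, so that the source of signal at either gene is uncertain.

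NEURL1, whose product is a ubiquitin ligase related to a regulator of Notch signalling, had signals of 3.20 in SkBr3 and 12168 in SkBr3/Lap. In the BT474 pair its signals were 3.24 and 208. The limits were 409-fold and 8.99-fold, and the scaled signal was 47.3-fold higher in SkBr3/Lap than in BT474/Lap. DEPP1, a target of FOXO factors linked to autophagy, had signals of 18.3 and 839 in the SkBr3 pair and 11.6 and 189 in the BT474 pair. Its limits were 24.6-fold and 8.16-fold. DOCK8 activates the small GTPase CDC42 in immune cells, and PDE6A is a subunit of the photoreceptor phosphodiesterase of rods. DOCK8 had 16.2 and 629 in the SkBr3 pair and 17.1 and 107 in the BT474 pair, with limits of 20.9-fold and 4.33-fold. PDE6A had 6.19 and 304 in the SkBr3 pair and 6.52 and 137 in the BT474 pair, with limits of 10.2-fold and 5.89-fold. After scaling, both were higher in SkBr3/Lap than in BT474/Lap, DOCK8 by 4.75-fold and PDE6A by 1.81-fold.

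Of the receptors, SORCS2 binds proneurotrophins through its VPS10 domain. It had signals of 10.5 and 1002 in the SkBr3 pair and 3.29 and 245 in the BT474 pair, with limits of 33.6-fold and 10.6-fold. NRP2, a co-receptor for class 3 semaphorins and VEGF, had 3.26, 111, 3.22 and 302 in the same order, with limits of 3.71-fold and 13.03-fold. By these probes SORCS2 was higher in SkBr3/Lap and NRP2 in BT474/Lap, but another NRP2 probe gave the opposite order, 209.6 in SkBr3/Lap against 62.5 in BT474/Lap. SIGLEC5, a lectin receptor of myeloid cells that binds sialic acid, had signals of 11.9 and 4045 in the SkBr3 pair and 12.6 and 123 in the BT474 pair. Its limits were 136-fold and 5.30-fold, and its scaled signal was 26.7-fold higher in SkBr3/Lap than in BT474/Lap. SIGLEC5 has a near-identical copy in SIGLEC14, so its signal may come from either gene.

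Genes of proteolysis outside the cell were TIMP3, ADAMTS9 and MME. TIMP3, an inhibitor of metalloproteases that is bound to the matrix, had signals of 4.89 in SkBr3 and 1183 in SkBr3/Lap, and of 7.94 in BT474 and 233 in BT474/Lap. The limits were 39.7-fold and 10.04-fold. ADAMTS9, a secreted protease that cuts proteoglycans, had signals of 3.92, 578, 3.76 and 120 in the same order, with limits of 19.4-fold and 5.19-fold. Both the inhibitor and the protease were silent in both parental lines and detected in both clones, as the rule asked. MME encodes neprilysin (CD10), a membrane peptidase, and was the 1 gene with 2 probes that met the rule. Its probes had signals of 3.74 and 4.06 in SkBr3, 205 and 121 in SkBr3/Lap, 3.90 and 4.22 in BT474, and 373 and 233 in BT474/Lap. The limits were 6.89-fold and 4.07-fold in SkBr3/Lap and 16.1-fold and 10.06-fold in BT474/Lap, so both probes gave the larger limit in BT474/Lap.

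A group of 3 genes makes or carries blood group antigens. XG encodes the Xg antigen, A4GALT is the galactosyltransferase that makes the globotriaosylceramide of the P1PK system, and ART4 carries the Dombrock antigens. XG had signals of 4.32 and 384 in the SkBr3 pair and 4.38 and 1540 in the BT474 pair, with limits of 12.9-fold and 66.5-fold. A4GALT had 4.05, 256, 6.90 and 651 in the same order, with limits of 8.59-fold and 28.1-fold. ART4 had 3.64, 684, 3.81 and 145, with limits of 23.0-fold and 6.24-fold. XG and A4GALT were higher in BT474/Lap, by 4.94-fold and 3.14-fold after scaling, and ART4 was higher in SkBr3/Lap, by 3.84-fold.

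The transcription factors were FOXC1, a forkhead factor used as a marker of basal-like breast cancer, and IRF8, an interferon regulatory factor of myeloid and B cells. FOXC1 had signals of 15.9 and 2162 in the SkBr3 pair and 14.0 and 431 in the BT474 pair. Its limits were 72.6-fold and 18.6-fold. IRF8 had signals of 4.57, 207, 4.70 and 138 in the same order, with limits of 6.97-fold and 5.98-fold. The scaled signals of IRF8 in the clones differed by 1.21-fold, with SkBr3/Lap higher.

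Transport and membrane genes included ABCB1 and CLIC5. ABCB1 had signals of 3.96 in SkBr3 and 2038 in SkBr3/Lap, and of 4.70 in BT474 and 236 in BT474/Lap, with limits of 68.4-fold and 10.2-fold. Its probe was also spotted 10 times, and no spot was above background in the parental lines. The spots lay between 1937 and 2105 in SkBr3/Lap, and between 81.5 and 286 in BT474/Lap, where their SD was 0.54 on the log2 scale. All 10 spots were above background in both clones, but the BT474/Lap value was measured with the wider spread. CLIC5, which is linked to the actin of cell protrusions, had 3.42 and 321 in the SkBr3 pair and 3.30 and 144 in the BT474 pair, with limits of 10.8-fold and 6.20-fold. After scaling, CLIC5 was 1.81-fold higher in SkBr3/Lap than in BT474/Lap.

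Genes of muscle and the cytoskeleton were MYPN, MYL11 and MTUS2. MYPN encodes myopalladin of the sarcomeric Z line and had signals of 7.57 and 1657 in the SkBr3 pair and 11.4 and 448 in the BT474 pair. Its limits were 55.6-fold and 19.3-fold. MYL11, also called MYLPF, is the regulatory myosin light chain of fast skeletal muscle, with signals of 11.6, 803, 10.4 and 117 in the same order and limits of 27.0-fold and 5.05-fold. MTUS2, a protein that binds microtubules, had 4.95, 808, 10 and 441, with limits of 27.1-fold and 19.0-fold. All 3 had the higher scaled signal in SkBr3/Lap. A further 2 genes are little studied. FAM81A had signals of 3.74 and 337 in the SkBr3 pair and 8.40 and 112 in the BT474 pair, with limits of 11.3-fold and 4.82-fold. VXN, or vexin, had 18.9 and 162 in the SkBr3 pair and 21.9 and 542 in the BT474 pair, with limits of 4.59-fold and 17.1-fold.

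Between the clones, 18 genes had the higher scaled signal in SkBr3/Lap, and LYN, NUDT10, XG, A4GALT, MME, VXN and NRP2 had it in BT474/Lap, for NRP2 with probes that disagreed. The same 18 and 7 were found without scaling. The number of genes depended on the signal asked of the clones. It was 12 at a minimum of 200 and 62 at a minimum of 50, and 85 when the background was corrected with normexp. Just inside the rule, the smaller clone signal was 107 for DOCK8, 111 for NRP2, 112 for FAM81A, 117 for MYL11 and 120 for ADAMTS9. Just outside it were ALOX5 with 94.2, FGF9 with 92.9, CD200 with 91.7, RNF157 with 88.1 and A2M with 87.6. On the parental side, SAMD5 was left out by signals of 17.8 in both parental lines that were marked above background. Its clone signals were 535 in SkBr3/Lap and 108 in BT474/Lap, so membership near these edges rests on small differences.

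Among the 4766 named probes silent in both parental lines, 246 (5.16%) reached 100 in SkBr3/Lap and 98 (2.06%) in BT474/Lap. The 26 probes of the 25 genes were 10.6% of the former and 26.5% of the latter. Of the 246, the other 220 reached 100 in SkBr3/Lap only, and 154 of these were not above background in BT474/Lap. Of the 98, the other 72 reached it in BT474/Lap only, and 49 of these were not above background in SkBr3/Lap. The opposite pattern, silent in both clones and at 100 or more in both parental lines, was met by 0 of the 3344 named probes silent in both clones. Of these, 19 reached 100 in SkBr3 and 3 in BT474. A fixed signal of 100 lay lower in the distribution of the clone arrays, where 55.6% and 56.9% of all probes reached it, than in that of SkBr3 (50.6%) and BT474 (51.4%). When all arrays were scaled to a common 75th percentile, DOCK8, FAM81A and NRP2 came out below 100, the other 22 genes remained, and the opposite pattern again had 0 genes.

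**Figure D2:**
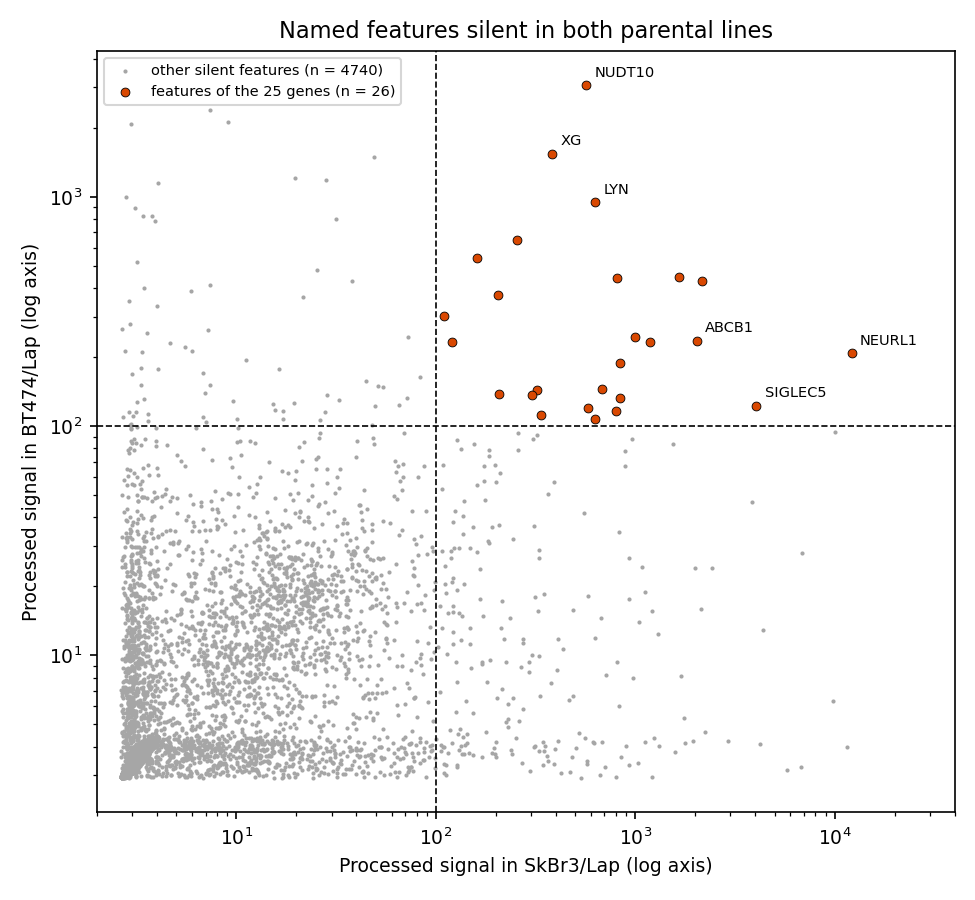
Processed signals in SkBr3/Lap (horizontal, log axis) and BT474/Lap (vertical, log axis) of the 4766 named probes that were silent in both parental lines, 1 point per probe, with the probes of the 25 genes in orange and dashed lines at 100. The 26 orange points lie at the upper right, against 220 points at the lower right and 72 at the upper left.

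Further probes of the same genes, which the rule did not choose, were examined next. Of the 25 genes, 13 had 16 further probes, and for 9 of the 13 these were all silent in both parental lines. Counting also the genes that had no further probe, 21 of the 25 genes were silent by every probe. For the genes with no further probe the rule itself asked for this silence, so only the 9 of the 13 bear on it. Of these 9, ADAMTS9 had a further probe that was silent on all 4 arrays, which cannot tell parental cells from clones. The genes with a further probe above background in a parental line go against the name silent. The further probe of FOXC1 had signals of 153 and 29809 in the SkBr3 pair and 281 and 8544 in the BT474 pair, and was above background on all 4 arrays. Its measured fold changes were 105-fold and 20.9-fold. The further probe of DEPP1 had 85.9, 5878, 120 and 1427 in the same order and was also above background throughout, with fold changes of 36.8-fold and 8.21-fold. FOXC1 and DEPP1 were therefore present in both parental lines and higher in both clones.

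The further probe of NEURL1 was above background in BT474, with signals of 17.5 and 2657 in the SkBr3 pair and 56.1 and 145 in the BT474 pair. There the change in BT474/Lap was 1.78-fold, under 2-fold. The further probe of SIGLEC5 was above background in SkBr3, with 22.8 and 1292 in the SkBr3 pair and 12.7 and 28.5 in the BT474 pair. Its limit in BT474/Lap was 1.23-fold. Thus, for NEURL1 and SIGLEC5 both probes gave large changes in SkBr3/Lap. In BT474/Lap the further probe of NEURL1 gave a smaller change than the limit of the first, while for SIGLEC5 both values were lower limits and cannot be compared. Of the 16 further probes, 12 were above background in both clones. The further probe of XG had signals of 3.53, 49.2, 4.05 and 1498, close to the first probe in BT474/Lap. In SkBr3/Lap it was well below the first probe, at 49.2 against 384, and its limit there was 1.65-fold. The further probes of NRP2 disagreed. The first had 3.49, 54.0, 3.34 and 148, with limits of 1.81-fold and 6.40-fold. Another had 4.33, 209.6, 4.37 and 62.5, with limits of 7.04-fold and 2.70-fold, and was thus higher in SkBr3/Lap. The remaining NRP2 probe, the only further one of ADAMTS9 and 1 of DOCK8 were silent on all 4 arrays. The other further DOCK8 probe was above background in SkBr3/Lap, at 16.8, but not in BT474/Lap, at 16.1. In BT474/Lap the further probes of MYPN, CLIC5 and MTUS2 gave limits of 1.23-fold, 1.19-fold and 1.84-fold. In SkBr3/Lap theirs were 3.59-fold, 3.03-fold and 2.99-fold. Those of NUDT10 and VXN gave 5.89-fold and 5.72-fold in BT474/Lap. In SkBr3/Lap that of VXN gave 2.41-fold and that of NUDT10, at 28.5, no limit.

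**Figure D3:**
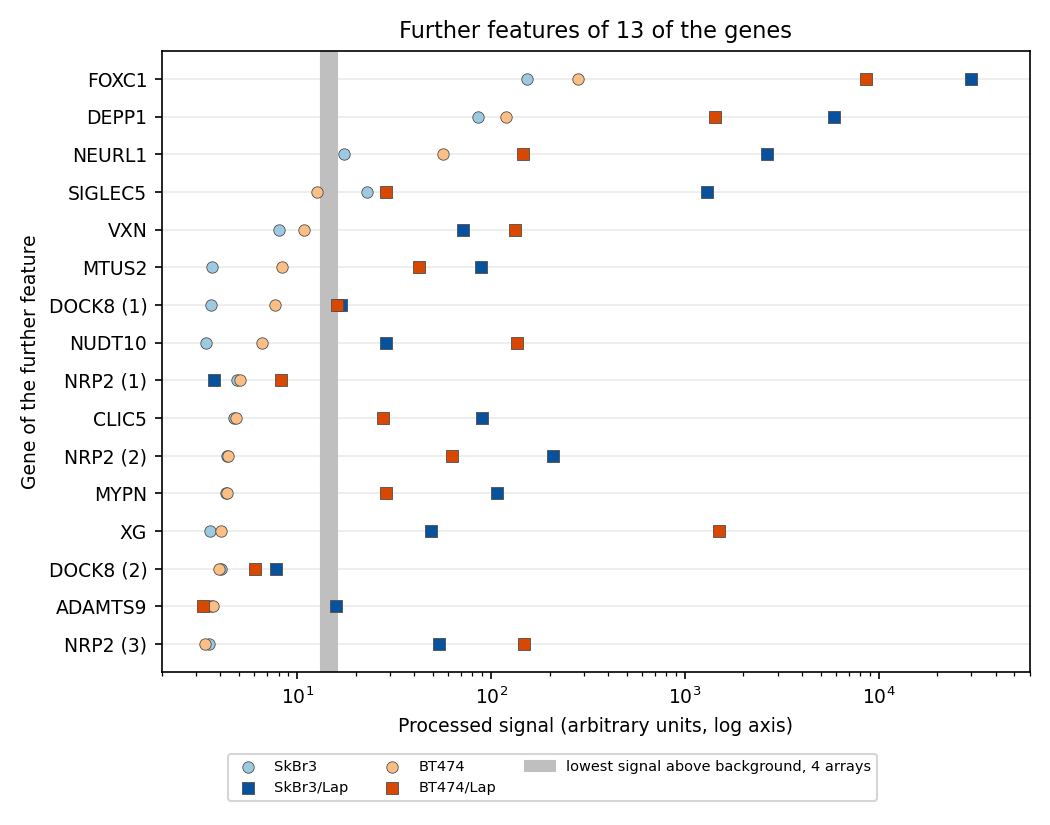
Processed signals (log axis) of the 16 further probes of 13 of the genes on the 4 arrays, with circles for parental cells, squares for clones and the grey band for the lowest signals above background (13.3 to 16.01). FOXC1 and DEPP1 have circles between 85.9 and 281, to the right of the band, while for most other probes only the squares are.

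The families of the genes were then described through the other genes on each list, leaving the 25 out. A family gene was counted as measurable when it was above background in the clone or its parental line. Of all named genes that were measurable, 12.7% were higher by 2-fold or more in SkBr3/Lap and 13.5% lower by as much, and in BT474/Lap these shares were 8.56% and 5.89%. The higher genes were 48.4% of the changed genes in SkBr3/Lap and 59.3% of those in BT474/Lap, and this split moved with the scaling, to 71.4% and 33.8% when the arrays were scaled by the spike-ins. Of the other Src family kinases, 2 of 6 were higher in SkBr3/Lap and 1 of 6 in BT474/Lap, and 0 were lower. FYN was higher in both, with signals of 106 and 2496 in the SkBr3 pair and 187 and 939 in the BT474 pair, or 12.7-fold and 3.46-fold.

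Of the other drug efflux transporters, 3 of 8 were higher and 2 lower in SkBr3/Lap, and 1 of 7 was higher and 1 lower in BT474/Lap. The lower genes were ABCC5 and ABCC6, with log2 changes of -2.19 and -3.22 in SkBr3/Lap, and ABCC3, with -2.12 in BT474/Lap. ABCG2, the breast cancer resistance protein, was higher in both. Its signals were 99.1 and 69052 in the SkBr3 pair, or 375-fold, and 99.5 and 9092 in the BT474 pair, or 62.9-fold. Unlike ABCB1, ABCG2 was above background in both parental lines. Of the other TIMPs and ADAMTS proteases, 4 of 11 were higher and 1 lower in SkBr3/Lap, and 3 of 10 were higher and 1 lower in BT474/Lap. ADAMTS1 was silent in SkBr3, with a signal of 3.21, and had 6082 in SkBr3/Lap, a limit of 204-fold, and it was 6.63-fold higher in BT474/Lap. TIMP2 was 2.01-fold higher in SkBr3/Lap, which fell under 2-fold when scaled by the probes above background on all 4 arrays, and 3.24-fold higher in BT474/Lap.

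Of the other sarcomere genes, 6 of 26 were higher and 4 lower in SkBr3/Lap, and 7 of 24 were higher and 2 lower in BT474/Lap. MYL7, an atrial myosin light chain, was 33.7-fold and 15.7-fold higher, with signals of 88.1 and 5533 in the SkBr3 pair and 31.6 and 720 in the BT474 pair. TNNT2, cardiac troponin T, was 18.8-fold higher in SkBr3/Lap and at least 6.31-fold higher in BT474/Lap. TMOD1, which caps actin filaments, was at least 4.501-fold and 3.42-fold higher.

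Of the other neuropilins, plexins and class 3 semaphorins, 2 of 10 were higher and 6 lower in SkBr3/Lap, and 4 of 11 were higher and 1 lower in BT474/Lap. PLXNA2, a semaphorin receptor, was 12.3-fold and 2.79-fold higher, and SEMA3E was lower, with log2 changes of -2.22 and -1.68. In globo-series glycolipid synthesis, where A4GALT acts, 1 of 8 other genes was higher and 2 lower in SkBr3/Lap, and 1 of 9 was higher and 1 lower in BT474/Lap. The higher gene was UGCG, which makes glucosylceramide, at 2.55-fold and 3.98-fold. ST3GAL1, a sialyltransferase, was lower, with log2 changes of -1.36 and -1.504, which were under 2-fold in both clones without scaling and in SkBr3/Lap when scaled by the spike-ins. Of the other blood group genes, 4 of 21 were higher and 3 lower in SkBr3/Lap, and 0 of 21 were higher and 1 lower in BT474/Lap. Of the other interferon regulatory factors, 1 of 6 was higher in SkBr3/Lap and 1 of 6 lower in BT474/Lap. Of the other VPS10 receptors, 1 of 2 was lower in SkBr3/Lap and 0 of 2 changed in BT474/Lap. These counts are small and no family was tested.

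**Figure D4:**
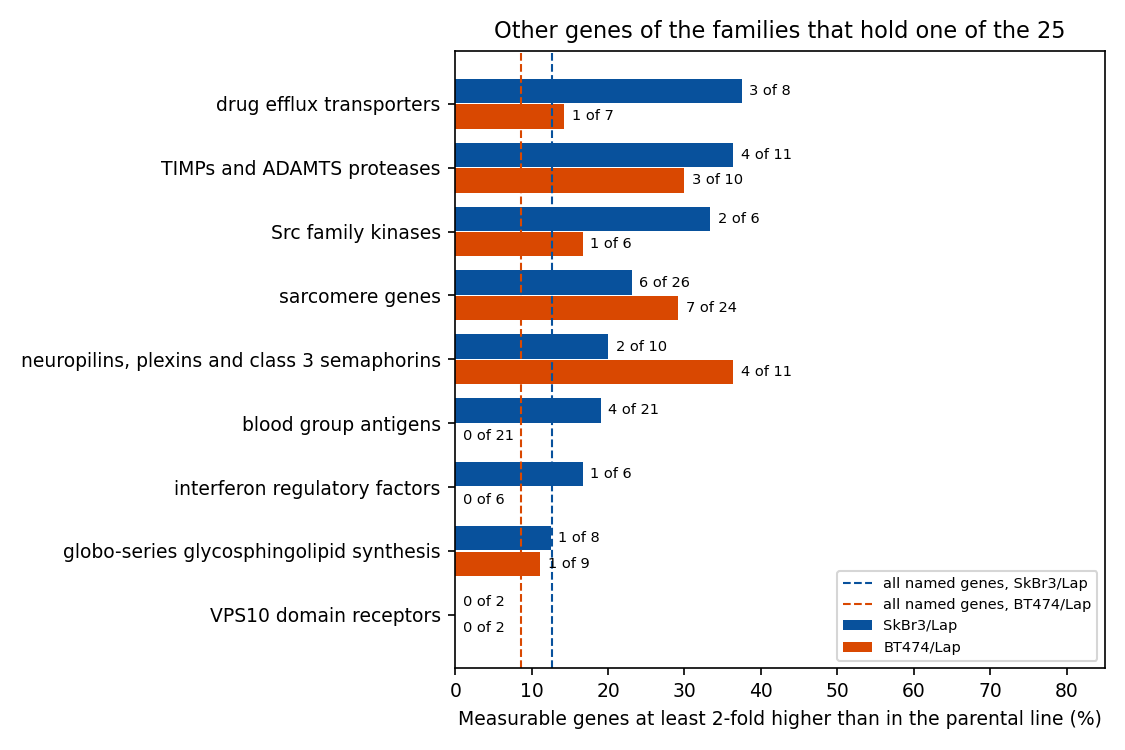
Share of the measurable other genes of each family that were at least 2-fold higher in SkBr3/Lap (blue) or BT474/Lap (orange) than in the parental line, with the counts beside the bars and dashed lines at the shares of all named genes (12.7% and 8.56%). The 25 genes themselves are left out, and most bars rest on fewer than 12 genes.

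Because several of the genes are known from blood cells, vessels or muscle, markers of other cell types were examined. Of 16 leukocyte markers, 8 and 9 were above background in the SkBr3 pair and 7 and 10 in the BT474 pair, and their summed signals were 8087 and 45107 in the former and 1453 and 2385 in the latter. The 5 that were silent on all 4 arrays were PTPRC (CD45), SPI1, CD3D, MS4A1 and LAPTM5, with signals from 2.70 to 12.96. Of the 9 measurable in SkBr3/Lap, 2 were at least 2-fold higher and 1 lower. Of the 10 in BT474/Lap, 2 were higher and 0 lower. CD53 was higher in BT474/Lap, with a log2 value of 1.07. It fell under 2-fold when scaled by the median, by quantile normalization or by the spike-ins. CSF1R, a receptor of macrophages, made up most of the sum in the SkBr3 pair, with signals of 5913 and 42225, and was silent in the BT474 pair. Of 11 fibroblast markers, 3 and 6 were above background in the SkBr3 pair and 3 and 3 in the BT474 pair. Their summed signals were 26986 and 182721 in the SkBr3 pair and 4042 and 5063 in the BT474 pair, while COL1A2, DCN, LUM, PDGFRA and POSTN were silent on all 4 arrays. Of the 6 measurable in SkBr3/Lap, 3 were at least 2-fold higher and 0 lower, and of the 3 in BT474/Lap 0 were. FBLN1, which made up most of the sums, had 25202 and 179935 in the SkBr3 pair, or 3.84-fold. COL3A1 had 4.10 and 347, a limit of 11.7-fold, and PDGFRB had 4.17 and 64.8, a limit of 2.18-fold. Of 10 endothelial markers, 5 and 7 were above background in the SkBr3 pair and 3 and 5 in the BT474 pair, with summed signals between 1076 and 1813, and EMCN, KDR and TIE1 were silent on all 4. Of the 7 measurable in SkBr3/Lap, 2 were higher and 1 lower, and of the 5 in BT474/Lap 1 was higher and 1 lower. PECAM1 was at least 5.38-fold and 2.38-fold higher in the clones, the latter under 2-fold when scaled by the spike-ins. Of 10 skeletal muscle markers, 5 and 7 were above background in the SkBr3 pair and 5 and 5 in the BT474 pair, with summed signals between 7248 and 12417. Of the 7 measurable in SkBr3/Lap, 0 were higher and 2 lower, and of the 5 in BT474/Lap 1 was higher and 0 lower. The part of other cells in the signals of the 25 genes was not tested.

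The 25 genes lay on 17 chromosomes, with at most 3 on 1, chromosome 10, which holds MYPN, NEURL1 and DEPP1. The nearest gene with a named probe on each side gave 50 neighbors, and 0 of these were among the 25. Of the neighbors, 28 were above background in both parental lines and 15 were silent in both. At least 2-fold higher were 6 of 40 measurable neighbors (15.0%) in SkBr3/Lap and 8 of 39 (20.5%) in BT474/Lap, beside the 12.7% and 8.56% of all named genes. The 8 include NUDT11 at 7.26-fold, the near-identical copy of NUDT10, for which the source of the signal is uncertain. Neighbors with values of at least 2-fold in both clones were RUNDC3B next to ABCB1, SMCO3 next to ART4 and SLC26A2 next to PDE6A. RUNDC3B had signals of 4.59 and 118 in the SkBr3 pair, a limit of 3.95-fold, and of 113 and 666 in the BT474 pair, or 4.05-fold. SMCO3 had limits of 2.20-fold and 5.32-fold, and SLC26A2, a sulfate transporter, of 8.68-fold and 3.39-fold. RASSF4, next to DEPP1, was 9.42-fold higher in SkBr3/Lap and had a limit of 1.07-fold in BT474/Lap, which does not show how large that change was.

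Promoters of 20 of the 25 genes were in the RefSeq table, and those of the other 5, ADAMTS9, LYN, SORCS2 and VXN among them, were not used here. A high CpG content, taken as at least 50% GC and an observed over expected CpG ratio of at least 0.6, was found in 10 of the 20 (50%). It was found in 46.9% of all 27305 promoters, in 67.7% of those of the named genes on the array and in 30.8% of those of the 1628 named genes silent on all 4 arrays. A GC box was in 12 of the 20 (60%), in 44.6% of all promoters, in 61.7% of those of the named genes on the array and in 33.7% of those of the silent genes. Among the genes on the array, a GC box was thus about as frequent as in the 20, and a high CpG content more frequent. A TATA box was in 2, MYPN and DEPP1, both 31 bases before the start, or 10% beside 11.95% of all promoters. The κB consensus was in CLIC5 and MTUS2 (10% beside 10.8%) and the AP-1 element in NUDT10 (5% beside 7.76%). The cAMP element (TGACGTCA) and the STAT motif (TTCNNNGAA) were in 0 of the 20, beside 1.98% and 7.88% of all promoters. Among named genes on the array, the shares were 8.62% (TATA box), 12.8% (κB consensus), 5.39% (AP-1), 2.82% (cAMP) and 6.81% (STAT). Both strands were searched, the motifs were counted separately where they overlapped, and a match is a run of letters in this window only.

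**Figure D5:**
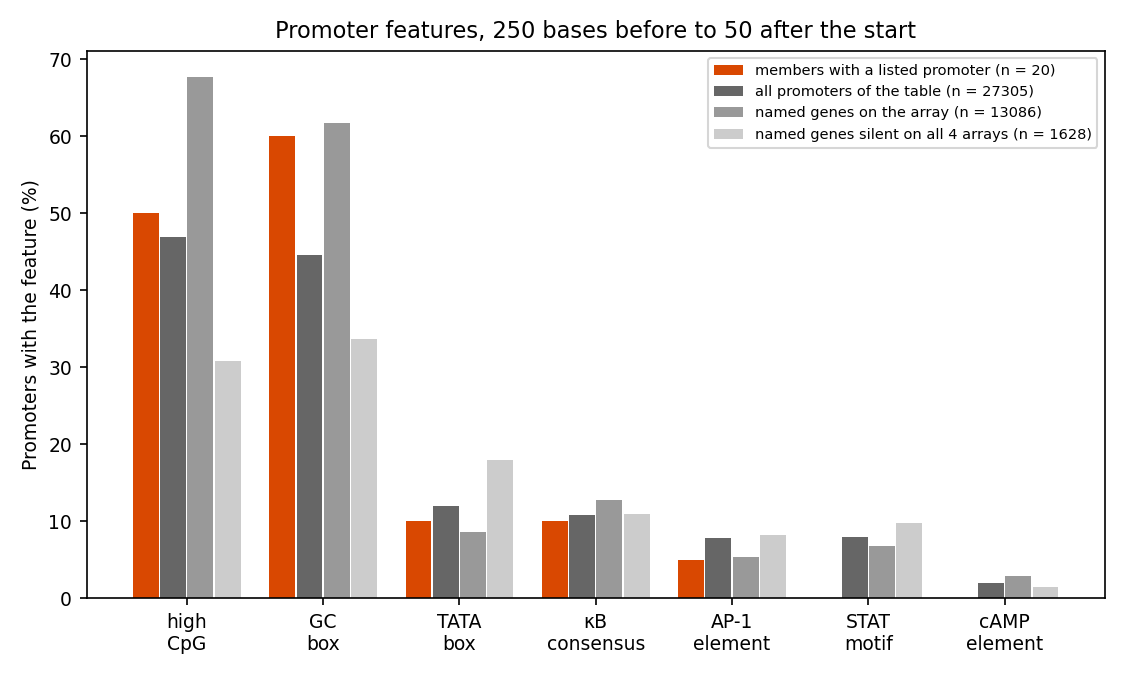
Share of promoters (250 bases before to 50 after the start) with a high CpG content or a motif, for the 20 of the 25 genes with a listed promoter (orange), all 27305 promoters, named genes on the array and named genes silent on all 4 arrays (greys). The orange bars stand at 50% for high CpG content and 60% for the GC box, and at 10% or less for the other motifs, beside 46.9% and 44.6% of all promoters and 67.7% and 61.7% of those of the named genes on the array.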

How the data were processed

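Total RNA, extracted with Trizol, was measured on 4 arrays, and groups were taken from the sample labels. The authors deposited scanner output with a background-subtracted intensity per spot, here called the processed signal, from Feature Extraction 10.1.1.1 per the file headers (the study's text names an earlier version, either dye and LOWESS normalization), with flags and median pixel intensities. A deposited log2 table of the same arrays, centered by the authors in a way not stated, served as an alternative only. Its column medians were 0.12 and -0.20 for the SkBr3 pair and 0.11 and -0.05 for the BT474 pair.

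Log2 signals were averaged over the spots of each probe, control spots were left out, and each array's 75th percentile over 41000 probes was subtracted. Probes were named by matching RefSeq accessions to the GRCh38.p14 annotation, from which promoter sequences were also taken. Each gene of a family was represented by its probe with the highest mean log2 signal. The array design uses another build, so no probe positions are given, and chromosomes, gene order and promoter windows are those of GRCh38.p14. With 1 array per condition there was no test, and the number of arrays limits the precision. The 25 genes and the gene lists were chosen with earlier results of these data known. Of the 25, 24 are named with their signals and 1 is counted but not reported here, family genes are named when changed at least 2-fold in both clones, and the 5 genes on each side of the signal limit are given. The normexp correction (offset 50, limma 3.58.1 in R 4.3.3) used the median pixel intensities. The other calculations used Python 3.11.15, numpy 2.4.6 and pandas 2.3.3.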

Additional observations from a re-analysis of the deposited data

Results flagged for a closer look

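Among the other genes of the families, 3 changed at least 2-fold in opposite directions in the clones, on the log2 scale of signals scaled by the 75th percentile. NRP1, the partner of NRP2 among the neuropilins, changed by -5.90 in SkBr3/Lap, with signals of 3718 in SkBr3 and 116 in the clone, and by 1.08 in BT474/Lap, with signals of 337 and 1033. KCNK13, a two-pore potassium channel, changed by -1.65 in SkBr3/Lap, with signals of 77.4 and 45.7, and by 2.65 in BT474/Lap, with signals of 70.8 and 645. ACTA1, skeletal muscle actin, changed by -1.52 in SkBr3/Lap, with signals of 807 and 524, and by 1.73 in BT474/Lap, with signals of 26.0 and 125. The difference between the clones was not tested, since there was 1 array per condition. Under the scaling alternatives no sign changed, but NRP1 came to 0.76 in BT474/Lap when scaled by the spike-ins and to 0.87 when scaled by the median, and KCNK13 and ACTA1 came to -0.76 and -0.62 in SkBr3/Lap without scaling, under 2-fold.

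Outside the named probes, 6 probes with no RefSeq gene name met the rest of the rule, so that 32 probes met it in all. The signals of these 6 ran from 3.53 to 15.0 in SkBr3, from 111 to 1117 in SkBr3/Lap, from 3.38 to 23.0 in BT474 and from 130 to 585 in BT474/Lap.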

How the results depend on the processing

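The number of genes that met the rule was 25. It was 62 at a signal minimum of 50 and 12 at 200, and 85 under normexp background correction, which adds 50 to every signal. All 25 were among the 62 and the 85. The count stayed within 1.5 times of 25 with arrays scaled to a common 75th percentile, with no spot allowed above background, with the clone signals asked to be above background, without outlier spots and when every probe of a gene had to be silent, which was added after the data were seen. The demand that every probe be silent could remove only the 13 genes with a further probe. The settings on spots and outliers could hardly change the count, since nearly all of the probes had 1 spot. The demand on the clone signals could hardly change it either, since 100 lies far above the lowest signals marked well above background (13.3 to 16.01). The opposite pattern had 0 genes, and 1 at a minimum of 50 and 2 under normexp. The median fold limit in SkBr3/Lap was 39.3 without scaling, 7.12 under normexp with quantile normalization, and 50.6 when the measured differences were taken with no limit. In BT474/Lap it was 3.41 under normexp with quantile normalization and 27.0 with no limit. The deposited log2 table, also with no limit, gave 50.6 and 27.0. In SkBr3/Lap its fold changes ran from 4.59 to 2046, against 4.59 to 2045 for the scaled signals with no limit. It thus gave nearly the same differences and is not a separate check. Leaving out the limit could not lower a value, since the limit raises dim parental signals. Leaving out the scaling raised the values because both clone arrays were brighter than the parental ones. The cause of the shift under normexp was not tested. In both clones, all 25 genes were higher by 2-fold or more under every alternative except normexp with quantile normalization. There 19 were, and IRF8, SIGLEC5, ADAMTS9, MYL11, FAM81A and DOCK8 were under 2-fold in BT474/Lap, the lowest at 1.63-fold. None changed direction. The shared direction and, apart from normexp, the gains of 2-fold or more were largely set by the rule. It asked for silent parental signals and clone signals of 100 or more on the same 4 arrays. These outcomes are therefore not a separate check of the 25 genes. Scaling by the spike-ins, added after the data were seen, moved the median of all named genes by 0.39 in SkBr3/Lap and by -0.32 in BT474/Lap on the log2 scale, and scaling by the median moved it by 0.16 and -0.21. Among the promoters of genes silent on all 4 arrays, 30.8% had a high CpG content and 17.9% a TATA box, in place of 46.9% and 11.95% of all promoters. No paired analysis was possible because each condition had 1 array, and for the same reason none could be left out in turn.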

Other observations

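Of the other lists examined, basal and stress keratins held none of the 25 genes. Of their measurable genes, 4 of 6 were at least 2-fold higher in SkBr3/Lap and 4 of 4 in BT474/Lap. For this and the lists below, the shares over all measurable named genes were 12.7% higher and 13.5% lower in SkBr3/Lap. In BT474/Lap they were 8.56% and 5.89%. KRT16 had signals of 42.0 and 3281 in the SkBr3 pair and 43.1 and 835 in the BT474 pair, or 42.0-fold and 13.3-fold. KRT14 was 17.0-fold and 2.83-fold higher, and KRT17 was 43.7-fold and at least 3.93-fold higher. KRT16 was close to the rule by another probe, which was silent in SkBr3 at 15.7 but above background in BT474 at 22.8, with signals of 1308 and 247 in the clones.

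Canonical NF-κB targets also held none of the 25. Of them, 16 of 26 were higher and 2 lower in SkBr3/Lap, and 3 of 17 were higher and 0 lower in BT474/Lap. Higher in both were BIRC3, an inhibitor of apoptosis, at 18.8-fold and 4.12-fold, and CD83 at 21.8-fold and 2.16-fold, where the BT474/Lap value fell under 2-fold when scaled by the median, by quantile normalization or by the spike-ins. Of two-pore potassium channels, 3 of 10 were higher in each clone, and 2 lower in SkBr3/Lap, with KCNK12 at least 4.30-fold higher in SkBr3/Lap and 5.04-fold in BT474/Lap. Of germline and cancer-testis genes, 7 of 22 were higher and 1 lower in SkBr3/Lap, and 2 of 11 were higher and 2 lower in BT474/Lap, with none higher in both. Of the luminal epithelial markers, 0 of 9 were higher and 2 lower in SkBr3/Lap, and 0 of 10 were higher or lower in BT474/Lap. The 2 were ERBB2 and GRB7, its neighbor in the amplified region, with log2 changes of -1.90 and -1.19, and GRB7 came under 2-fold without scaling and when scaled by the spike-ins.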
